A study of Mus musculus with 10 samples.

Results

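The circular RNAs (circRNAs) described here come from the loci of Ano2 and Cacnb2 in the mouse retina. They are the circRNAs on the plus strand whose start and end both lie within a stretch of chromosome 6 that holds Ano2 or a stretch of chromosome 2 that holds Cacnb2, on the mm9 build. This rule found 12 of the 9029 circRNAs listed, 11 at Ano2 and 1 at Cacnb2. Dropping the condition on strand found the same 12. Of the 9029, 975 are named by a database ID with no position and could not be assigned to either locus. The rule itself uses position, but the 2 genes were chosen from earlier results on these counts over the 5 ages. The levels of their circRNAs by age, their fitted changes and the calls made on them are therefore given as a description and support no test. A p-value is printed only for a share within the Ano2 locus, and with 2 libraries per age that test cannot decide.

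Retinae of C57BL/6 mice were measured at embryonic day 18.5 (E18.5) and at postnatal days 1, 7, 14 and 30 (P1, P7, P14 and P30), with 2 libraries per age and 10 in all. All animals carry the same strain label, and no treatment, transgene or mutation is given for any group. Total RNA was depleted of ribosomal RNA before sequencing, and the deposited table gives an estimated count per circRNA and library. The study describes its replicates at each age as biological and reports more of them per age than the 2 libraries used here. The labels do not tie libraries to animals, so the spread given here is that between 2 libraries.

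Library totals ran from 6606.5 to 28658 counts over all circRNAs. The smallest value above 0 was 2 and values moved in steps of 0.5, so a value of 0 sets no upper limit here and folds against 0 are not given. Levels are also given as CPM, the counts scaled to a common total over all circRNAs of a library, and are not divided by length. The retina was sequenced as a whole, so fewer cells of a type and less RNA per cell cannot be told apart. The table names no genes, so the tissue label could not be checked against markers of retinal cell types.

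A circRNA forms when the end of an exon is spliced back to the start of the same or an earlier exon. The product is closed, has no poly(A) tail, and is recognised by the back-splice junction, the only stretch that sets it apart from the linear transcript of the same gene. Ano2 encodes anoctamin 2, a calcium-activated chloride channel that in the retina sits in the membrane of photoreceptor synaptic terminals. Cacnb2 encodes the β2 subunit of voltage-gated calcium channels, which brings the pore-forming subunit to the membrane and tunes its gating. In photoreceptors, calcium entry through such channels drives glutamate release at the ribbon synapse. Counts of the circular products do not measure the channel proteins, and the files give no function for them.

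The host genes were checked through the lengths of the circRNAs. The annotation at hand, GENCODE M21, is on the GRCm38 build, and no position was converted. Instead the span of each circRNA was compared with all distances from the start of 1 exon to the end of the same or a later exon. In the 26 exons of transcript Ano2-204 there are 351 such distances, and 10 of the 11 circRNAs at Ano2 equalled one of them to the base. The circRNA at Cacnb2 equalled 1 of the 90 distances among the 13 exons of Cacnb2-202. Of the 8042 circRNAs elsewhere, 0.373% matched an Ano2 distance and 0.224% a Cacnb2 distance. The matches hold with the listed starts counted from 0, so starts are printed 1 base higher here. With starts counted from 1, 0 of the 12 matched. Exon numbers below are those of these 2 transcripts.

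The back-splice junctions of the circRNAs with a total of 10 counts or more show how the ends are reused, except for the 1 Ano2 circRNA whose span matched no exon pair, for which no junction could be built. Each line holds 50 bases of the GENCODE M21 transcript sequence (GRCm38), 5′ to 3′ on the coding strand, with the last 25 bases of the last exon in lower case and the first 25 of the first exon in capitals. They are reference sequence placed in back-spliced order by the length match, not reads.
Ano2 exons 2-3: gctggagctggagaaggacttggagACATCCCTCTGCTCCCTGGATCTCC
Ano2 exons 2-4: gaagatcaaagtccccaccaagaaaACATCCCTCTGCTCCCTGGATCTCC
Ano2 exons 5-10: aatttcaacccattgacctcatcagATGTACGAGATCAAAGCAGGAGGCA
Ano2 exons 5-15: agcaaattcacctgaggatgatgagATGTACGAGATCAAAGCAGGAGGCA
Ano2 exons 18-21: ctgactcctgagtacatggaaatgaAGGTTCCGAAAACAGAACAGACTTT
Cacnb2 exons 10-12: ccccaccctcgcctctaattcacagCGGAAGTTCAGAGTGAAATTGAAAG
The lines for exons 2-3 and 2-4 share their capitals, as do those for exons 5-10 and 5-15, because the same exon start was joined to different exon ends.

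The 11 circRNAs at Ano2 used 6 distinct starts and 8 distinct ends. The start of exon 5 was used by 4 of them, the starts of exons 2 and 4 by 2 each, and the ends of exons 3, 7 and 10 by 2 each. All exons enclosed by the matched circRNAs are coding in the annotated transcripts. Whether every exon between the 2 ends is kept in the circle is not shown by the files. If all are kept, the circle of exons 2-3 (chr6:125660574-125662465) is 512 bases long and that of exons 5-10 (chr6:125740259-125765617) holds 6 exons and 422 bases. The circle of Cacnb2 exons 10-12 (chr2:14902933-14906066) would hold 3 exons and 437 bases. All positions are on mm9.

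**Figure D1:**
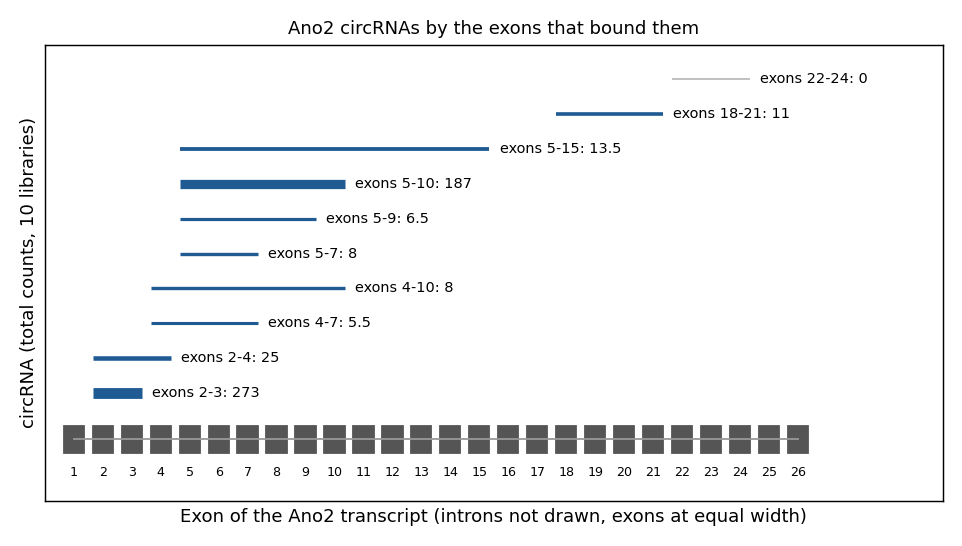
The 10 Ano2 circRNAs matched by length, drawn over the exons of Ano2-204 (horizontal axis, exon number, exons at equal width and introns not drawn), 1 bar per circRNA, thicker for a larger total, with its total count over the 10 libraries beside it. Exons 2, 4 and 5 start 8 of the 10 bars, and exons 2-3 (273 counts) and 5-10 (187 counts) hold the largest totals. The circRNA with an upstream start is not drawn.

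Counts were concentrated in a few circRNAs. Ano2 exons 2-3, Ano2 exons 5-10 and Cacnb2 exons 10-12 together held 88.0% of the counts of the 12, with totals of 273, 187 and 257.5 over the 10 libraries. Of the 12, 7 had a total of 10 counts or more, and 1 (Ano2 exons 22-24) was listed at 0 in every library. All 12 were listed at 0 in both E18.5 and both P1 libraries.

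Ano2 exons 2-3, the most abundant at its locus, was listed at 9 and 12.5 counts at P7, 26 and 53 at P14, with 71 and 101.5 at P30. On the CPM scale the means were 1310 ± 528 (P7), 2659 ± 637 (P14) and 3034 ± 718 (P30; SD, n = 2). Both P14 libraries and both P30 libraries lay above both P7 libraries in CPM (936 and 1683), while P14 (2208 and 3109) and P30 (2526 and 3542) overlapped. By count it ranked 226 and 103 among the circRNAs above 0 in the P7 libraries, 54 and 28 at P14, with 44 and 21 at P30.

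Ano2 exons 5-10 was listed at 11.5 and 6 counts at P7, 25 and 48.5 at P14, with 38.5 and 57.5 at P30. Its mean CPM was 1002 ± 275 in the P7 libraries, 2484 ± 510 in the P14 libraries and 1688 ± 450 in the P30 libraries (SD, n = 2). The P14 libraries (2123 and 2845 CPM) both lay above the P30 libraries (1370 and 2006 CPM). Both ages lay above P7 (1197 and 808 CPM). This order is on the CPM scale, and the fitted log2 fold change from P14 to P30, −0.23 (SE 0.528), did not resolve it. How many circRNAs overall separate by age in this way was not counted, here or for the other leading circRNAs. Its rank was 57 and 36 at P14 and 105 and 64 at P30.

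Cacnb2 exons 10-12, the circRNA of the calcium channel β2 subunit gene, was listed at 3 and 2 counts at P7, 20.5 and 51 at P14, with 99 and 82 at P30. The P7 values lie within 1 count of the smallest value above 0 in the table, which is 2. Mean CPM came to 291 ± 30.3 for P7, 2366 ± 884 for P14 and 3192 ± 468 for P30 (SD, n = 2). P7 (312 and 269 CPM) lay apart from P14 (1741 and 2992 CPM), whereas the P14 and P30 (3523 and 2861 CPM) libraries overlapped. It ranked 801 and 868 at P7 and 21 and 37 at P30.

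**Figure D2:**
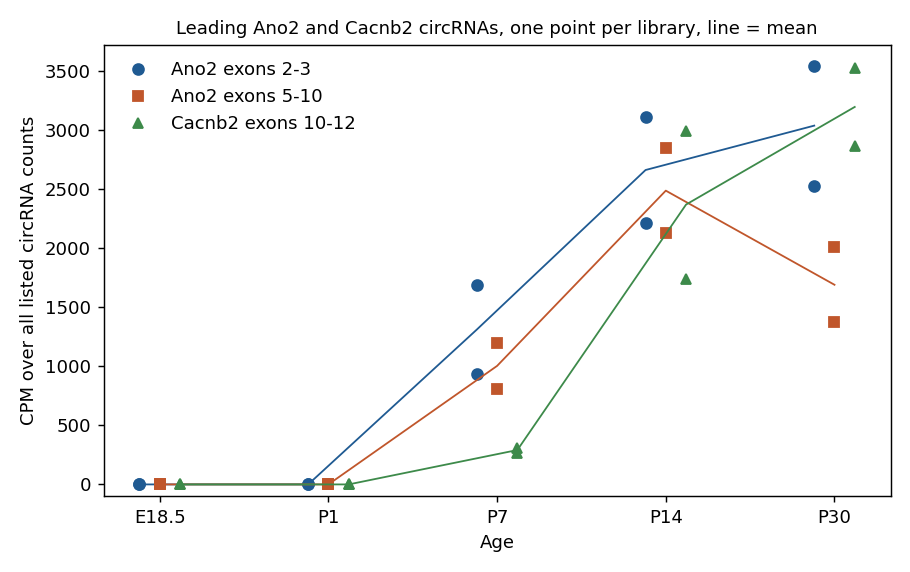
CPM (vertical axis, linear) by age (horizontal axis, not to scale of time) for Ano2 exons 2-3, Ano2 exons 5-10 and Cacnb2 exons 10-12, with 1 point per library and lines through the means of 2 libraries. All 3 are at 0 at E18.5 and P1, and at P14 Cacnb2 exons 10-12 reaches a mean of 2366 CPM from 291 at P7.

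Expected counts at the early totals are given for scale only, since the origin of the minimum of 2 is unknown and a listing at 0 sets no limit. Had the mean P7 level held at the totals of the 4 E18.5 and P1 libraries, Ano2 exons 2-3 would have had 8.65 to 11.9 counts and Ano2 exons 5-10 6.62 to 9.11, and each was listed at 0 in all 4. For Cacnb2 exons 10-12 the range is 1.92 to 2.64 counts, near the smallest listed value. It was listed at 2 counts in P7 replicate 2, whose total of 7426 lies below both P1 totals (9092 and 8601.5). Whether depth accounts for its zeros was not tested. A listing at 0 in all 4 of these libraries was common: of the 6365 circRNAs above 0 anywhere, 4077 (64.1%) had it. Only 27 (0.424%) were in addition above 0 in all 6 later libraries, and 3 of the 27 are the leading circRNAs described here, whose course was known when the genes were chosen.

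The other 9 circRNAs at Ano2 were sparse, with 8 above 0 and a highest count of 12.5. None was above 0 before P14. At P14, 1 and 4 of them were listed in the 2 libraries, and at P30 5 in each. At the P7 totals, the 7 of them with counts at P30 would have had 0.661 to 3.31 counts at their P30 level, with 3 of 14 values at 2 or more. These values too are for scale only, and whether depth accounts for the listing at 0 at P7 was not tested.

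The exon 2 start was joined to the end of exon 4 (chr6:125660574-125725912) at 5.5 counts in P14 replicate 1, 0 in P14 replicate 3, and 12.5 and 7 at P30. It was thus above 0 in both P30 libraries and in 1 of the P14 libraries. A longer circle from the exon 5 start, exons 5-15 (chr6:125740259-125830771), had 8.5 counts in P14 replicate 3, 5 in P30 replicate 2, and 0 in P14 replicate 1 and P30 replicate 3. If all exons are kept it holds 11 exons and 921 bases, the longest of the matched circles.

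Exons 18-21 (chr6:125930113-125942982), which shares neither end with another circRNA of the locus, had 3.5 and 7.5 counts at P30 and 0 in all other libraries. The circRNA that matched no exon pair of the 6 annotated Ano2 transcripts (chr6:125658640-125662465) starts 1934 bases before the exon 2 start and ends with exon 3. It had 7.5 counts in P14 replicate 3, 0 in P14 replicate 1, and 9 and 4 at P30. Its end is thus the one used by the leading circRNA, and its start is not an annotated exon start by length.

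Exons 4-7, 4-10, 5-7 and 5-9 each had a total under 10, from 5.5 to 8 counts. Exons 5-9 was above 0 in P30 replicate 2 alone, exons 4-7 in P30 replicate 3 alone and exons 4-10 in P14 replicate 3 alone. With values this low, which of these circles is listed in a library cannot be read as a difference between libraries.

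**Figure D3:**
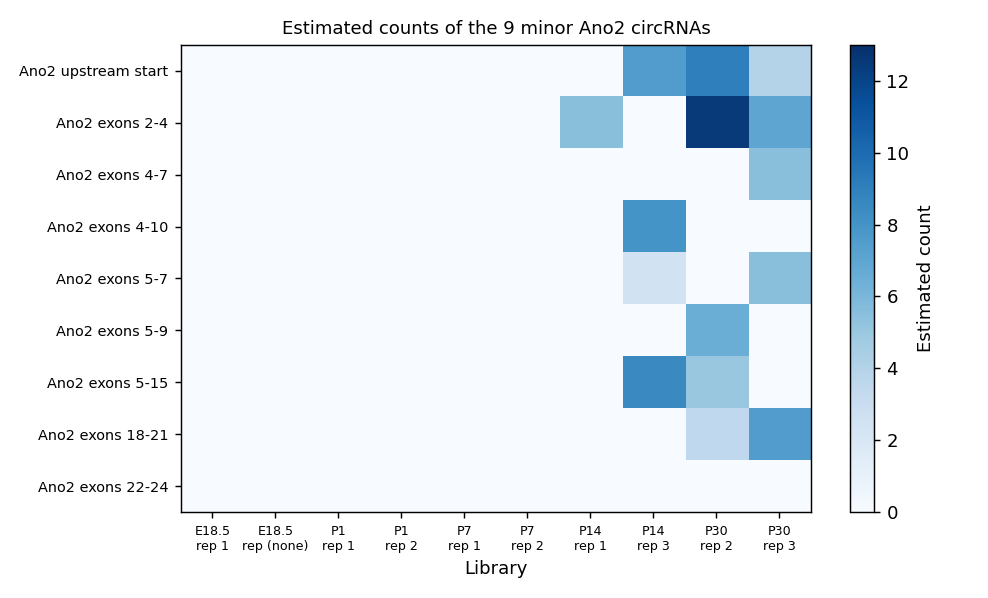
Counts (colour scale) of the 9 less abundant Ano2 circRNAs (rows) in the 10 libraries (columns, by age). Cells above 0 appear only at P14 and P30, and the highest holds 12.5 counts.

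Summed over the locus, Ano2 circRNAs had 20.5 and 18.5 counts at P7, 56.5 and 128 at P14, with 146 and 188.5 at P30. This came to mean CPM values of 2312 ± 253 for P7, 6154 ± 1916 for P14 and 5886 ± 978 for P30 (SD, n = 2). P14 and P30 thus differed by less than the spread between their libraries, and their order turned with the scaling, to 7009 CPM at P14 and 7396 at P30 with totals multiplied by TMM (trimmed mean of M values) factors. The less abundant circRNAs held 0% of the locus in both P7 libraries, 9.73% and 20.7% at P14, with 25% and 15.6% at P30. Both loci together held 0.245% and 0.276% of all circRNA counts at P7, 0.654% and 1.05% at P14, with 0.872% and 0.944% at P30.

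The balance between the 2 leading Ano2 circles is a ratio within a library, which the library total does not affect. For the intervals, counts were rounded to whole numbers, and the shares printed beside them use the same rounded counts. Of the rounded counts of exons 2-3 and 5-10 together, exons 2-3 held 42.9% (95% Clopper-Pearson interval 21.8% to 66.0%) and 66.7% (41.0% to 86.7%) at P7. At P14 it held 51.0% (36.6% to 65.2%) and 52.5% (42.3% to 62.5%), and at P30 65.1% (55.4% to 74.0%) and 63.8% (55.8% to 71.2%). Such intervals treat the values as whole, independent reads, although they are estimates in steps of 0.5. They are therefore approximate for counting error and cover no other spread. The 2 P7 libraries lay on either side of the others, and the intervals of P14 and P30 overlapped. Of unrounded counts of the whole locus, exons 2-3 held 43.7% ± 3.26 at P14 and 51.2% ± 3.69 at P30 (SD, n = 2). The difference was 7.53 percentage points (exact permutation test, two-sided, p = 0.333, the smallest that 2 against 2 libraries can give). No data could have given this test a lower p, so nothing is concluded from it. Exons 2-3 was also picked as leading by a total that includes these same libraries.

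Cacnb2 counts were also set against Ano2 counts of the same library, again rounded to whole numbers. Cacnb2 held 13.0% (2.78% to 33.6%) and 10% (1.23% to 31.7%) of the counts of both loci at P7, 26.3% (16.9% to 37.7%) and 28.5% (22.0% to 35.7%) at P14, and 40.4% (34.2% to 46.8%) and 30.4% (24.9% to 36.2%) at P30. Both P14 libraries lay above both P7 libraries, and both P30 libraries above both P14 libraries, while the intervals of neighbouring ages overlapped. The mean share was 15.9 percentage points higher at P14 than at P7 and 7.99 higher at P30 than at P14, and no test is given. The P7 shares rest on Cacnb2 counts of 3 and 2, at or near the smallest value listed above 0, which is 2. The step from P7 is therefore poorly measured. The genes were chosen with these counts known. The share says nothing of which locus makes more RNA, since detection of the 2 loci was not compared.

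**Figure D4:**
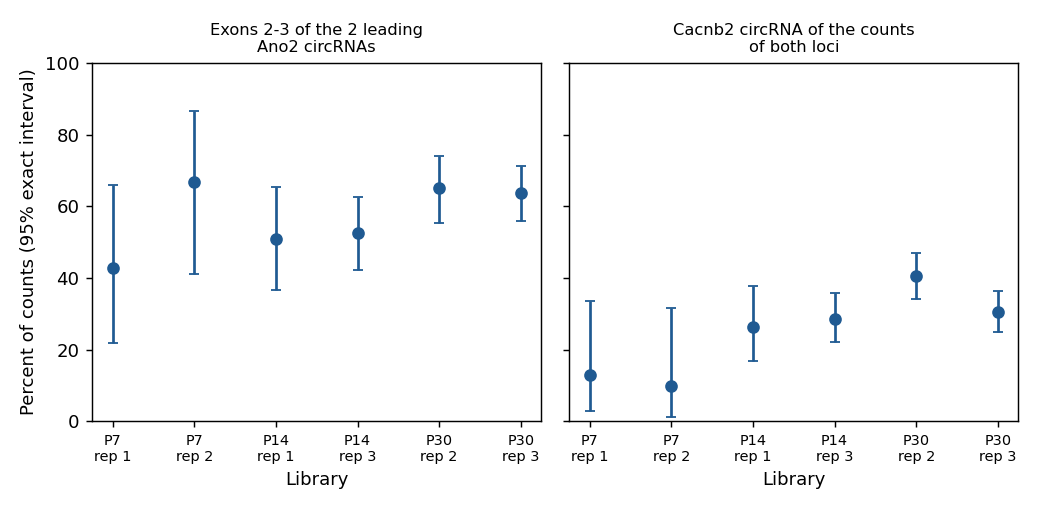
Share of rounded counts in percent (vertical axis) in each P7, P14 and P30 library (horizontal axis) of Ano2 exons 2-3 among both leading Ano2 circles, and of Cacnb2 among the counts of both loci. Bars are 95% Clopper-Pearson intervals, approximate for counting error since the values are estimates. The Cacnb2 share lies between 10% and 13.0% at P7 and between 30.4% and 40.4% at P30, and the P7 intervals are wide.

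A fit over all circRNAs was made with edgeR's quasi-likelihood test, at a Benjamini-Hochberg adjusted p under 0.05. After the filter on low counts 327 circRNAs were tested, among them 3 of the 12. A circRNA at 0 at the early ages passes that filter only through the ages at which it is high, so the counts of calls that follow are descriptions. Between P30 and E18.5, 35.2% of all tested circRNAs were called, and so were all 3 members tested. Between P14 and P7, 5.50% were called, among them 1 of the 3, Cacnb2 exons 10-12. Between P30 and P14, 2.75% were called and 0 of the 3.

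For Cacnb2 exons 10-12 the log2 fold change of P14 over P7 was 3.46 (SE 0.686). The circRNA passed the filter through P14 and P30, not through its 3 and 2 counts at P7. The call was lost without P7 replicate 1 (log2 fold change 3.46), P7 replicate 2 (3.31), P14 replicate 3 (2.76), P30 replicate 2 (3.31) or P30 replicate 3 (3.32). For the same step, Ano2 exons 2-3 had 1.57 (SE 0.539) and exons 5-10 had 1.73 (SE 0.599), neither called.

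From P14 to P30 the fitted log2 fold changes were 0.51 (SE 0.465) for Ano2 exons 2-3, −0.23 (SE 0.528) for exons 5-10 and 0.74 (SE 0.488) for Cacnb2 exons 10-12. All 3 approximate 95% intervals, with normal limits, held 0, from −0.40 to 1.42, from −1.26 to 0.81 and from −0.21 to 1.70. The value for exons 5-10 turned to 0.08 without P14 replicate 3 and to 0.07 without P30 replicate 2. A fall at that locus after P14 was thus not resolved with 2 libraries per age.

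To place the 2 loci among other circRNAs, Pearson's r of log2(CPM + 1) over the 10 libraries was computed between each locus sum and the 229 circRNAs elsewhere with a mean of at least 10 counts. For Ano2 the nearest were chr14:22445941-22483970 on the plus strand (r = 0.998), chrX:81123386-81132572 on the plus strand (r = 0.996) and chr4:102720815-102745448 on the minus strand (r = 0.994). The same 3 led for Cacnb2, at r = 0.992, 0.978 and 0.990 in that order, and the 2 locus sums had r = 0.989 with each other. All share the value of 0 in the 4 E18.5 and P1 libraries, and the values of a library share its total. On this log2 scale the step up from 0 largely sets r, so a high r does not show a like course after P7.

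The 3 differed more after P7. The chromosome 14 circRNA had mean levels of 724 CPM at P7, 1715 at P14 and 2893 at P30, and the chromosome 4 one 519, 851 and 2300. The chromosome X circRNA stayed between 875 and 1082 CPM over the same ages. The files tie none of the 3 to a gene.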

How the data were processed

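Libraries were made from 1 µg of total RNA with a TruSeq kit after ribosomal depletion. The deposited values are estimated counts of circRNAs, 1 column per library, without normalization by the authors. The submitters' processing notes name Trimmomatic and mm9. The circRNA caller, the aligner and the origin of the steps of 0.5 and of the minimum of 2 were not given in the sources used here. Age and number in a column name gave its library. In 1 E18.5 column the number is that of no E18.5 label, and it served as a replicate with no number.

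The edgeR 4.0.16 quasi-likelihood test (R 4.3.3) was run on rounded counts of all 10 libraries, modelled by age. TMM factors and filterByExpr were used (minimum count 10, minimum total count 15), and the common dispersion was 0.125. CPM, locus sums and the share of exons 2-3 in the whole Ano2 locus used the unrounded values. Shares printed with a binomial interval used counts rounded to whole numbers. This was done with Python 3.11.15, pandas 2.3.3, scipy 1.17.1 and matplotlib 3.10.9.

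The loci, members and lists were chosen with earlier results of these data known. Members with a total of at least 10 counts, or among the 5 largest of their locus, were to be described by library, and the 3 circRNAs most like each locus sum were named. A list of photoreceptor terminal genes and the retinal cell type markers could not be tested, since no file gives the host gene of a circRNA and the annotation is not of mm9. The alternatives tried were DESeq2 1.42.0, scaling by library totals or by relative log expression, other filters, fits of the compared ages alone, a replicate block, members on either strand and leaving out each library.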

Additional observations from a re-analysis of the deposited data

How the results depend on the processing

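Pairing of libraries by replicate number was checked only between P1 and P7. Replicate 2 minus replicate 1 at P1 correlated with the same difference at P7 at 0.0170 across tested circRNAs. This value does not exclude a pairing, and the other ages, which do not share both numbers, were not checked. With a replicate block over the 9 numbered libraries, calls fell to 28 (P30 against E18.5), 0 (P14 against P7) and 0 (P30 against P14), and member calls to 1, 0 and 0. In that fit Cacnb2 exons 10-12 had a log2 fold change of 3.42 for P14 over P7 and was not called. Over 17 alternatives that change ran from 2.76 to 3.85, and 11 called it. It was not called without P7 replicate 1 (3.46), P7 replicate 2 (3.31), P14 replicate 3 (2.76), P30 replicate 2 (3.31) or P30 replicate 3 (3.32).

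In the fits without 1 library, in which 1 age keeps a single library that is assumed to vary like the others, members called ran from 0 to 1 for P14 against P7. Over all circRNAs calls ran from 65 to 133 for P30 against E18.5, against 115 with all 10 libraries, with 68 without P30 replicate 2 and 65 without P30 replicate 3. For P14 against P7 they ran from 3 to 32, against 18 with all 10, and for the last step, P30 against P14, from 0 to 11, against 9. Requiring at least 10 counts in both libraries of an age gave 212, 10 and 0 calls for the 3 comparisons in that order. For the steps P7 to P14 and P14 to P30, DESeq2 gave 29 and 15 calls and the 2 compared ages alone 34 and 2. Without a filter the last step had 4. The log2 fold change of Ano2 exons 5-10 from P14 to P30 turned to 0.0777 without P14 replicate 3 and 0.0748 without P30 replicate 2, and over the fits without 1 library ran from −0.526 to 0.0777. TMM factors raised the P30 sums to 7396 CPM (Ano2) and 4001 CPM (Cacnb2). The median log2 change of all tested circRNAs from P30 over E18.5 was 0.31 with TMM, 0.22 with relative log expression and −0.21 with library totals, so fitted changes are relative to such shifts. The cause of these changes was not tested. The share of the leading circle carries no information for Cacnb2, whose 1 circRNA holds all counts of its locus by construction. At the P7 totals, the P30 level of the less abundant Ano2 circRNAs corresponds to 0.661 to 3.31 counts. Whether depth accounts for their zeros at P7 was not tested.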
